A study of Mus musculus with 16 samples.

Results

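Transcripts of 6 receptors that read chemokines or chemerin, Cx3cr1, Ccr1, Ccr2, Ccrl2, Cxcr4 and Cmklr1, were followed in mouse retinal microglia. They were taken from the gene table by exact symbol, 6 of 54532 genes, and all 6 passed the filter on low counts. The 8 OIR libraries came from retinas with oxygen-induced retinopathy, a model in which pups breathe high oxygen, lose retinal capillaries, and on return to room air form new vessels that grow abnormally in the oxygen-starved tissue. The 8 nonOIR libraries came from retinas without it. Every animal of both groups was a Cx3cr1CreERT2:Rosa26-tdTomato reporter mouse that had received tamoxifen (5 µl at 21 mg/ml, under the skin) on postnatal day 1, and cells were taken on postnatal day 17. In these mice the Cre recombinase that switches on tdTomato is driven by Cx3cr1 regulatory DNA, and the labels say neither how many Cx3cr1 alleles carry it nor whether the insertion changes Cx3cr1 transcript counts, so the Cx3cr1 levels and rank given here are those of reporter mice. Cells were sorted as CD45low, CD11b+, tdTomato+, Ly6C- and Ly6G-. Cx3cr1 is thus both one of the receptors measured and the gene whose activity marked the sorted cells in both groups.

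Chemokine receptors are G-protein-coupled receptors that steer the movement of leukocytes along gradients of small secreted proteins. In the retina, microglia are known for a high level of the fractalkine receptor Cx3cr1, which reads a ligand that neurons display and shed, while Ccr2 is known as the receptor that brings monocytes out of the blood. Chemerin, the product of Rarres2, is an attractant protein that signals through Cmklr1 and is held on the cell surface by Ccrl2.

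Libraries held 13.6 M to 30.0 M counts (M, mega-counts). In each group 5 libraries carried a first lane code in their label (replicates 1 to 5, lane 1 here) and 3 carried a second (replicates 6 to 8, lane 2 here). The labels do not tell whether the code also separates animals or preparations. They do not state that libraries came from separate animals either, so p-values only measure how far these samples spread, and that spread may be technical. Levels are CPM, counts relative to the library total after TMM scaling. All group tests are edgeR quasi-likelihood tests unless another tool is named, with Benjamini-Hochberg adjustment over the genes tested in each fit. These were 12496 in the main fit, 12523 in lane 1 alone, 13085 in lane 2 alone and 12624 to 12705 with a library left out. The 10 microglial marker genes summed to 38113 to 64091 CPM in OIR and 66474 to 81754 CPM in nonOIR libraries. The defining monocyte and granulocyte genes Ly6c2 and Ly6g had 0 counts in all 16 libraries, which allows up to 3 counts in each, for counting error only. Whether reads of these genes can be placed uniquely was not examined, so their 0 counts do not prove absence. Other listed granulocyte genes were not all absent. A list of 9 neutrophil genes summed to 188 to 336 CPM in OIR and 214 to 370 CPM in nonOIR. Of these 9 genes 1 was tested and did not pass, and Retnlg and Ngp were at 0 in all libraries.

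None of the 6 receptors passed the test over all 16 libraries at an adjusted p of 0.05, where 10.9% of all tested genes did (6.39% higher and 4.56% lower in OIR, or 798 and 570 genes, against 1023 and 365 when scaled by library size alone). The groups did not separate for any of the 6 over all libraries, as they did for 2.02% of genes. By edgeR 0 of 6 also had an unadjusted p under 0.05, by DESeq2 0 of 6 passed after adjustment and 1 of 6 (Cx3cr1) before it, and by limma-voom 0 of 6 passed after adjustment and 0 of 6 before it. With lane as a covariate 1 of 6, Cx3cr1, passed as lower in OIR, where 17.3% of all tested genes passed in either direction and 7.59% were lower. In the authors' deposited table the log2 values of the 6 receptors ran between -0.32 for Cx3cr1 and 0.39 for Cxcr4, with adjusted p-values of 0.199 to 0.940.

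**Figure D1:**
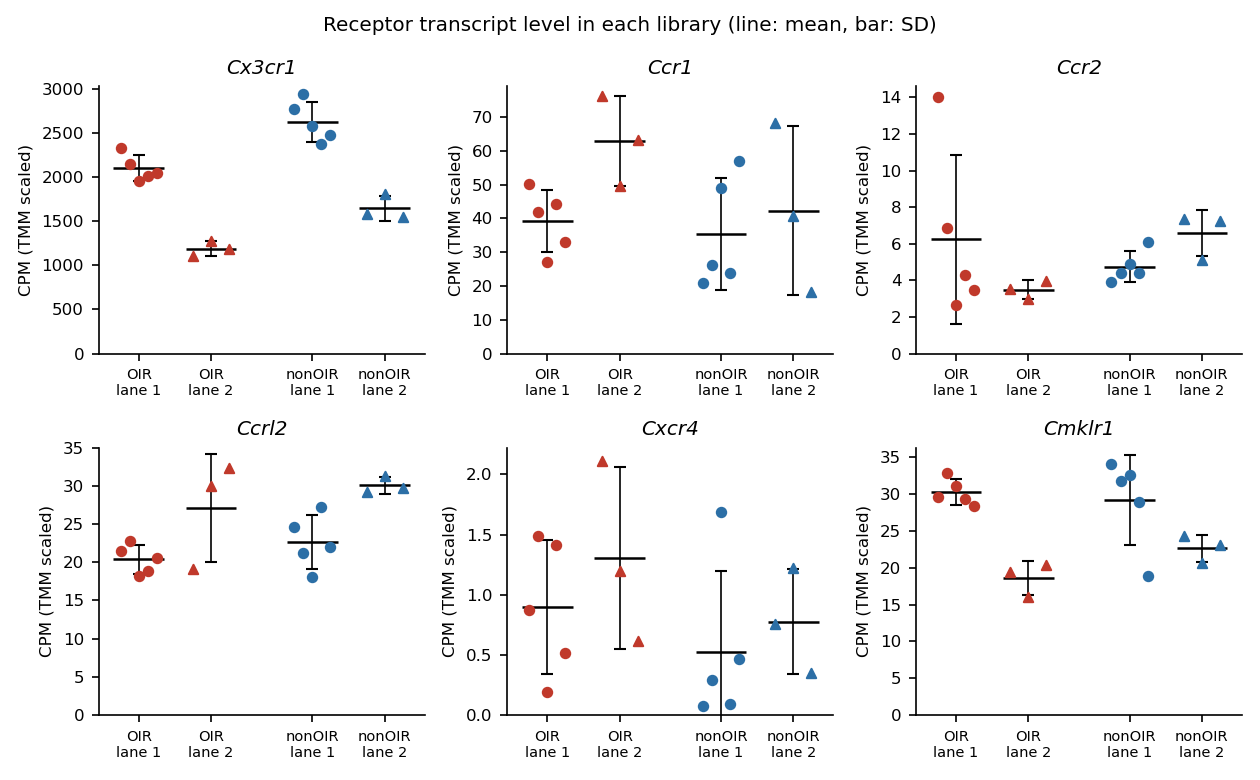
Level of each receptor in CPM (linear axes starting at 0), with 1 point per library, circles for lane 1 and triangles for lane 2, the 8 OIR libraries left of the 8 nonOIR libraries; lines are means and bars SD within a lane, drawn only down to 0. Cx3cr1 in OIR lies below nonOIR within each lane without overlap, while over both lanes the groups overlap, and OIR replicate 1 stands at 14.0 CPM of Ccr2 above all other libraries.

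Cx3cr1, the fractalkine receptor (ENSMUSG00000052336, chr9:119901616-120069879 on the minus strand of mm10, GENCODE M21), was the most abundant of the 6 receptors per exon length. Its lowest, median and highest levels were 1106, 1984 and 2334 CPM in OIR libraries, against 1548, 2423 and 2940 CPM in nonOIR libraries. The groups overlapped, although all 8 OIR libraries lay below the nonOIR median. Means were 1758 ± 488 CPM in OIR and 2259 ± 541 CPM in nonOIR (SD, n = 8 each), and the log2 fold change was -0.36 (SE 0.18, edgeR adjusted p = 0.210).

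Most of that spread lay between the lanes. In lane 1, Cx3cr1 stood at 2334, 2152, 1959, 2009 and 2049 CPM in OIR and at 2771, 2940, 2574, 2372 and 2473 CPM in nonOIR. In lane 2 it stood at 1106, 1273 and 1183 CPM in OIR and at 1582, 1810 and 1548 CPM in nonOIR. Within each lane every OIR library was below every nonOIR library, a pattern that 1.38% of all tested genes showed. The SD within a group and lane was 7.03% to 8.72% of the mean, against 27.8% in OIR and 24.0% in nonOIR over both lanes.

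With lane as a covariate Cx3cr1 differed by -0.38 on the log2 scale (SE 0.060, edgeR adjusted p = 0.000316), which is 0.769 of the nonOIR level with a 95% interval of 0.705 to 0.840. It passed within lane 1 alone (-0.32, edgeR adjusted p = 0.0322, where 3.33% of genes were called and 1.13% were lower) and within lane 2 alone (-0.43, edgeR adjusted p = 0.0128, where 15.4% were called and 5.77% were lower). The call with lane held in each of 16 repeats that left out 1 library, with values between -0.40 and -0.35. The difference between OIR and nonOIR did not itself differ detectably between lanes (-0.15, 95% interval -0.40 to 0.099, edgeR adjusted p = 0.638). Without lane, Cx3cr1 did not pass the test against a minimum fold of 1.5. Its estimate there, 0.778 of the nonOIR level, was a smaller change than that minimum, so that test could not pass. In bulk RNA, fewer cells of a type and less RNA per cell cannot be told apart.

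Marker lists followed Cx3cr1 only in part. The summed microglial markers were lower in OIR without overlap. Of single tested genes, 2.02% did not overlap between groups in either direction, a share that is not a like measure to a sum. Of the 10 microglial genes 5 passed as lower, where 4.56% of all tested genes did, and 0 as higher. Among the 5 were P2ry12 (6604 ± 1529 CPM in OIR and 11340 ± 1168 CPM in nonOIR) and Tmem119 (2794 ± 547 CPM in OIR and 4564 ± 372 CPM in nonOIR). Within nonOIR the microglial sums of the lanes overlapped, at 66896 to 81754 CPM in lane 1 and 66474 to 71242 CPM in lane 2, while Cx3cr1 was lower in lane 2. Within OIR the microglial sums did not overlap between lanes and were lower in lane 2, as Cx3cr1 was. They were 53767 to 64091 CPM in OIR lane 1 and 38113 to 45090 CPM in OIR lane 2. The 10 border macrophage genes summed to 15.4 to 496 CPM in OIR and 29.4 to 244 CPM in nonOIR, with the 3 OIR libraries of lane 2, those with the least Cx3cr1, highest at 429 to 496 CPM. In lane 1 these sums overlapped between OIR (15.4 to 199 CPM) and nonOIR (29.4 to 244 CPM). Of these 10 genes 9 were tested, 0 passed and none was at 0 in all libraries. The 7 erythrocyte genes summed to 1.87 to 292 CPM in OIR (median 98.1 CPM) and 0 to 28.9 CPM in nonOIR (median 1.11 CPM). Only the near-identical globin genes Hbb-bs and Hbb-bt were tested, and reads may be split between them. Both passed as higher, where 6.39% of all tested genes did. The low-count filter can admit a gene through the group where it is high. For these globin genes, low in nonOIR, that share is therefore not a like comparison. The part of any of these measures in the Cx3cr1 difference was not tested.

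Ccr1, a receptor for inflammatory CC chemokines such as Ccl3 and Ccl5 (ENSMUSG00000025804, chr9:123962124-123968692, minus strand), reached 27.1, 46.9 and 76.1 CPM (lowest, median, highest) in OIR and 18.1, 33.3 and 68.1 CPM in nonOIR. The groups overlapped widely, with 6 of 8 OIR libraries above the nonOIR median. The means of 48.2 ± 15.8 CPM in OIR and 37.9 ± 18.6 CPM in nonOIR (SD, n = 8 each) differed by less than the spread between libraries (log2 fold change 0.34, 95% interval -0.22 to 0.91, edgeR adjusted p = 0.472). In nonOIR the SD was 49.1% of the mean, and its lowest and highest libraries, replicates 8 and 6, were both of lane 2.

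Ccr2, the receptor for Ccl2, Ccl7 and Ccl12 (ENSMUSG00000049103, chr9:124101950-124113557, plus strand), was low. It stood at 14.0, 6.85, 2.63, 4.27 and 3.49 CPM in OIR lane 1 and 3.55, 2.96 and 3.96 CPM in OIR lane 2, against 3.92, 4.41, 4.90, 4.43 and 6.12 CPM in nonOIR lane 1 and 7.35, 5.12 and 7.25 CPM in nonOIR lane 2. OIR replicate 1, with 353 counts, was higher than any other library, and the groups overlapped. Means were 5.21 ± 3.78 CPM in OIR and 5.44 ± 1.32 CPM in nonOIR (SD, n = 8 each; log2 fold change -0.062, edgeR adjusted p = 0.935), and without OIR replicate 1 the log2 fold change was -0.46 (edgeR adjusted p = 0.241).

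The Ccr2 groups separated in lane 2, where the 3 OIR libraries (3.49 ± 0.503 CPM) lay below the 3 nonOIR libraries (6.57 ± 1.26 CPM), as 18.8% of tested genes did, but the test within that lane did not pass after adjustment (log2 fold change -0.87, unadjusted p = 0.0355, edgeR adjusted p = 0.137). In lane 1 the fold change had the other sign (0.40, edgeR adjusted p = 0.719). The difference between lanes was -1.30 (95% interval -2.59 to -0.011, edgeR adjusted p = 0.378), and -0.75 without OIR replicate 1. That library also had the highest sum of 8 dendritic cell genes, 44.7 CPM, against 28.9 CPM in the next OIR library and 31.1 CPM in the highest nonOIR library. The 12 monocyte genes summed to 25.9 to 42.0 CPM in OIR and 8.06 to 22.4 CPM in nonOIR, without overlap. Of single tested genes, 2.02% did not overlap between groups in either direction. A sum over a list is not a like measure to that share, and which genes carried the monocyte sum is not given here. Of the 12 monocyte genes 4 were tested and 1 (Ms4a4c) passed as higher, where 6.39% of all tested genes did. Ly6c2 and Cd177 were at 0 throughout. In OIR replicate 1 the monocyte sum was 26.3 CPM, in the low part of the OIR range. These sums do not count cells, and the part of monocytes or dendritic cells in the Ccr2 values was not tested. Of 5679 distinct stretches of 50 bases in the longest Ccr2 transcript 129 also occurred in transcripts of other genes. Some Ccr2 reads could therefore stem from elsewhere. The same held for 47 of 4444 stretches of Cx3cr1 and 11 of 2823 of Cmklr1, and for 0 of Ccr1, Ccrl2 and Cxcr4.

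**Figure D2:**
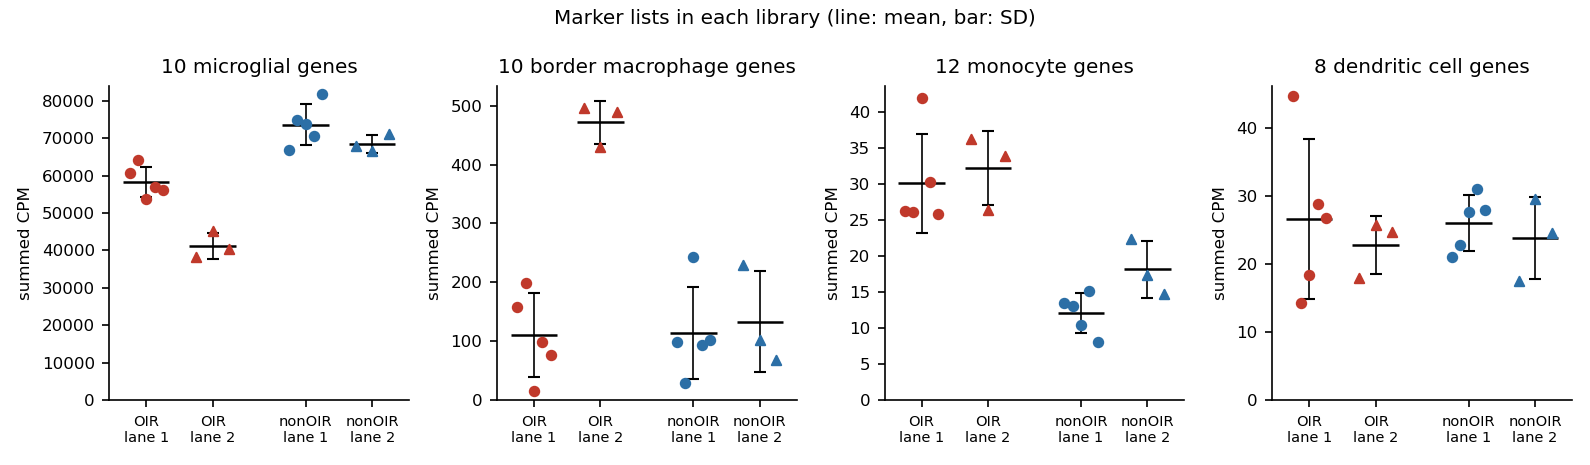
Summed CPM of 10 microglial, 10 border macrophage, 12 monocyte and 8 dendritic cell genes, 1 point per library, OIR left of nonOIR, circles for lane 1 and triangles for lane 2, with means as lines and SD as bars (linear axes starting at 0). The OIR libraries of lane 2 are lowest in the microglial sum and highest in the border macrophage sum (429 to 496 CPM), the monocyte sums of the groups do not overlap, and OIR replicate 1 has the highest dendritic sum (44.7 CPM).

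Cxcr4, the receptor for Cxcl12 (ENSMUSG00000045382, chr1:128588199-128592293, minus strand), was the lowest of the 6 per exon length. Its counts ran from 6 to 47 in OIR and from 1 to 31 in nonOIR, or 0.195, 1.03 and 2.111 CPM (lowest, median, highest) in OIR and 0.0740, 0.406 and 1.69 CPM in nonOIR. In OIR 7 of 8 libraries lay above the nonOIR median, yet the groups overlapped. A level of 3 counts, the most that a count of 0 allows, corresponds to 0.0975 to 0.222 CPM, and 2 nonOIR libraries (replicates 1 and 4) were below it. The log2 fold change of 0.76 had a 95% interval of -0.51 to 2.02 (edgeR adjusted p = 0.478). The SD was 59.2% of the mean in OIR and 93.0% in nonOIR. Without nonOIR replicate 3 the log2 fold change was 1.15 (edgeR adjusted p = 0.264), and 1.40 with lane as a covariate as well (95% interval 0.13 to 2.68, unadjusted p = 0.0326, edgeR adjusted p = 0.126).

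Cmklr1, the signalling chemerin receptor (ENSMUSG00000042190, chr5:113612354-113650426, minus strand), reached 16.0, 28.9 and 32.9 CPM (lowest, median, highest) in OIR and 18.8, 26.6 and 34.1 CPM in nonOIR. Means of 25.9 ± 6.32 CPM in OIR and 26.8 ± 5.84 CPM in nonOIR (SD, n = 8 each) were not told apart (log2 fold change -0.048, 95% interval -0.40 to 0.31, edgeR adjusted p = 0.902). The sign turned when libraries were scaled by size alone (0.012) and in lane 1 alone (0.058). In lane 2 the OIR libraries (16.0 to 20.3 CPM) lay just below the nonOIR libraries (20.7 to 24.3 CPM), as for 18.8% of tested genes, with a log2 fold change of -0.24 that did not pass (edgeR adjusted p = 0.461).

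Ccrl2, which binds chemerin without signalling through G proteins (ENSMUSG00000043953, chr9:111054486-111057519, minus strand), reached 18.3, 21.0 and 32.3 CPM in OIR and 18.03, 26.0 and 31.3 CPM in nonOIR (lowest, median, highest). The groups covered nearly the same range. Means of 22.9 ± 5.35 CPM in OIR and 25.4 ± 4.71 CPM in nonOIR (SD, n = 8 each) gave a log2 fold change of -0.15 (95% interval -0.47 to 0.17, edgeR adjusted p = 0.597). Like Cx3cr1, Ccr1 and Ccr2, it lies on chromosome 9.

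**Figure D3:**
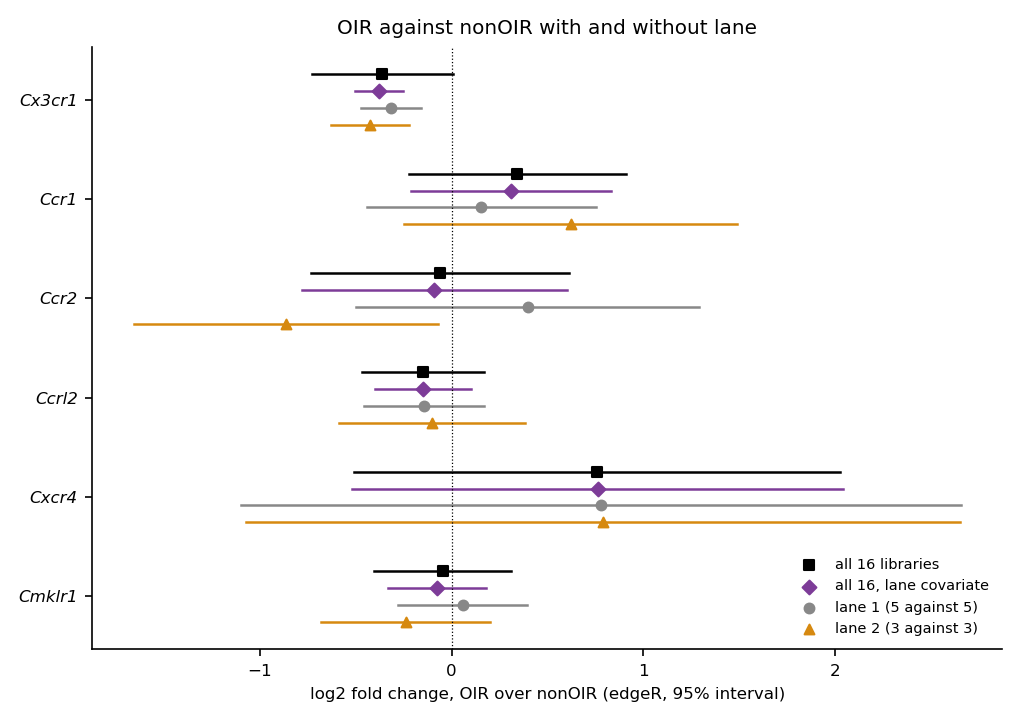
Log2 fold change of OIR over nonOIR with its 95% interval for each receptor, from all 16 libraries, from all 16 with lane as a covariate, from lane 1 alone (5 OIR against 5 nonOIR) and from lane 2 alone (3 against 3). The Cx3cr1 value stays between -0.43 and -0.32 while its interval narrows once lane is accounted for, and the Ccr2 values of the lanes, 0.40 and -0.87, have opposite signs.

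The lane itself separated receptors, a comparison added after the values were seen. In the fit with group and lane, 3 of the 6 receptors differed between lane 2 and lane 1, where 24.8% of all tested genes did. Cx3cr1 was lower in lane 2 (log2 difference -0.75, edgeR adjusted p = 1.82e-07), at 0.596 of its lane 1 level. Cmklr1 was also lower in lane 2 (-0.53, edgeR adjusted p = 0.00460), while Ccrl2 was higher there (0.41, edgeR adjusted p = 0.0174). The lane 2 minus lane 1 difference of Cx3cr1 was larger than its OIR minus nonOIR difference of -0.38, and both groups showed it. Between lanes the OIR against nonOIR difference did not differ for any of the 6 receptors after adjustment (0 of 6, where 0.496% of tested genes did; 1 of 6, Ccr2, had an unadjusted edgeR p under 0.05, and by DESeq2 and limma-voom 0 of 6 passed).

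Set per length, the receptors covered a wide range. Means in RPKM (CPM per kilobase of exon) over all 16 libraries were 446 ± 125 for Cx3cr1, 15.2 ± 6.17 for Ccr1, 9.30 ± 1.94 for Ccrl2, 7.73 ± 1.73 for Cmklr1, 0.788 ± 0.405 for Ccr2 and 0.461 ± 0.343 for Cxcr4 (SD, n = 16). Cx3cr1 was above Ccr1, and Cmklr1 above Ccr2, in 16 of 16 libraries. Other neighbours in this order were less apart. Ccr1 was above Ccrl2 in 13 of 16 libraries, Ccr2 above Cxcr4 in 12, and Ccrl2 above Cmklr1 in only 8, so that Ccrl2 and Cmklr1 were not separated beyond their spread.

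On the same scale Ackr3, an atypical receptor that takes up Cxcl12, stood at 1.22 ± 0.505 RPKM in OIR and 1.12 ± 0.376 RPKM in nonOIR, and Cxcr3 at 1.13 ± 0.604 RPKM in OIR and 0.629 ± 0.260 RPKM in nonOIR (SD, n = 8 each). Both lay below Cmklr1 and above Cxcr4 in mean RPKM, and neither passed the test between groups (log2 fold change 0.13, edgeR adjusted p = 0.840 for Ackr3, and 0.84, edgeR adjusted p = 0.208 for Cxcr3).

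**Figure D4:**
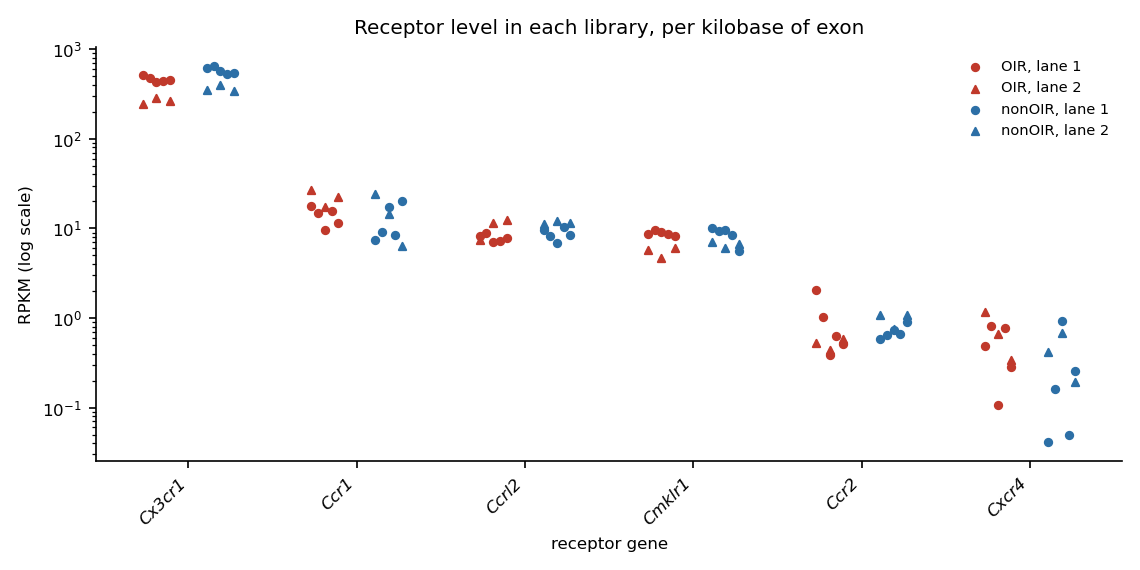
RPKM (log axis) of the 6 receptors, 1 point per library, OIR left of nonOIR for each gene, circles for lane 1 and triangles for lane 2. Cx3cr1 at a mean of 446 RPKM stands above Ccr1, Ccrl2 and Cmklr1, and Ccr2 and Cxcr4 average 0.788 and 0.461 RPKM.

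Ligands of these receptors were measured in the same cells. Of 13 ligands 10 were tested, 6 passed as higher in OIR and 2 as lower, where 6.39% of all tested genes were higher and 4.56% lower. The median log2 fold change was 0.91, against -0.031 for all tested genes. The ligand list was chosen with earlier results of these data known, so neither comparison is independent of these values. For the Ccr2 ligands, Ccl2 stood at 57.8 ± 33.0 CPM in OIR and 10.4 ± 3.31 CPM in nonOIR (log2 fold change 2.48, edgeR adjusted p = 0.000130), Ccl7 at 6.74 ± 4.62 CPM in OIR and 1.47 ± 1.15 CPM in nonOIR (2.20, edgeR adjusted p = 0.0258), and Ccl12 at 431 ± 56.8 CPM in OIR and 228 ± 43.4 CPM in nonOIR (0.92, edgeR adjusted p = 0.000112). Ccl2 and Ccl12 did not overlap between groups, as 2.02% of tested genes did not, while Ccr2 did.

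Among ligands of Ccr1, Ccl3 passed as higher, at 56.7 ± 19.8 CPM in OIR and 30.2 ± 5.51 CPM in nonOIR (log2 fold change 0.91, edgeR adjusted p = 0.00369). Ccl6 and Ccl9, which are rodent chemokines that bind Ccr1, passed as lower, with 508 ± 110 CPM in OIR and 718 ± 155 CPM in nonOIR for Ccl6 (-0.50, edgeR adjusted p = 0.0354) and 354 ± 79.1 CPM in OIR and 532 ± 121 CPM in nonOIR for Ccl9 (-0.59, edgeR adjusted p = 0.0154). The ligands of a single receptor thus had opposite signs, and Ccl5 did not pass (0.11, edgeR adjusted p = 0.871). Ccl4 (1.74, edgeR adjusted p = 0.00334) and Mif, which can bind Cxcr4 (1.37, edgeR adjusted p = 0.000550), were the other 2 that passed as higher. Ccl8 had 0 counts in all 8 nonOIR libraries and 723 counts over the OIR libraries, 692 of them in lane 2, and the low-count filter left it out of the test over all 16 libraries; it is named because of these values, which were seen first.

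The ligands that neighbouring cells are known to supply were close to the floor in these sorted cells. Cx3cl1 (fractalkine) had 102 counts over the 8 OIR libraries and 33 over the 8 nonOIR libraries. Rarres2 (chemerin) had 7 in OIR and 0 in nonOIR, and Cxcl12 had 82 in OIR and 97 in nonOIR. Of the 3 only Cxcl12 had enough reads to be tested, and it did not pass (-0.37, edgeR adjusted p = 0.833).

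Genes that carry the receptor signal, such as G-protein subunits, arrestins, receptor kinases, RGS proteins and motility regulators, were called in both directions. Of the 31 genes found, 29 were tested, 3 passed as higher and 2 as lower, where 10.9% of all tested genes passed, with a median log2 fold change of -0.034, against -0.031 for all tested genes. The G-protein subunits Gnb2 (0.30, edgeR adjusted p = 0.0198) and Gng5 (0.55, edgeR adjusted p = 0.0257) and the GTPase Rac2 (0.51, edgeR adjusted p = 0.00280) were higher in OIR. Rgs2, which shortens G-protein signalling, was lower (771 ± 140 CPM in OIR and 1164 ± 144 CPM in nonOIR, -0.59, edgeR adjusted p = 0.00172), as was the GTPase Rhoh (-0.50, edgeR adjusted p = 0.00875). Gnai2, the most abundant inhibitory G-protein subunit of the list, stood at 1294 ± 104 CPM in OIR and 1126 ± 151 CPM in nonOIR and did not pass (0.20, edgeR adjusted p = 0.139). With lane as a covariate 11 of the 29 passed, where 17.3% of all tested genes did.

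Among libraries, the receptors varied largely apart from each other. After the mean of each group within each lane had been subtracted from log2(CPM + 1), the strongest of the 15 pairings was Ccr1 with Cxcr4 (Pearson r = 0.63, Spearman rho = 0.72, n = 16), and Ccrl2 with Cxcr4 was the most negative (r = -0.51, rho = -0.42). On this scale the gene most like Cx3cr1 among 7806 genes of at least 10 CPM was Rin2 (r = 0.88), and the one most like Ccr1 was Hs2st1 (r = 0.92). For Ccr2 it was Atraid (r = 0.94), for Ccrl2 St3gal4 (r = 0.80), for Cxcr4 Fbxo3 (r = 0.84) and for Cmklr1 Akt1s1 (r = 0.91). These are descriptions over 16 libraries that share depth, amplification and residual lane effects, and the highest of so many values is high by selection. The Akt1s1 value rested partly on nonOIR replicate 5, being 0.74 without it.

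Promoter windows of 2 receptors are shown, Cx3cr1 because its regulatory DNA marked the sorted cells and Cxcr4 because it is a textbook hypoxia-responsive gene that here was the lowest of the 6. They are RefSeq sequences of GRCm38.p6, 300 bases from 250 before the start site, read along the minus strand, at chr9:120068247-120068546 for Cx3cr1 and chr1:128592250-128592549 for Cxcr4. Capitals mark the core ACGTG or GCGTG bound by hypoxia-inducible factors, searched on both strands.
Cx3cr1: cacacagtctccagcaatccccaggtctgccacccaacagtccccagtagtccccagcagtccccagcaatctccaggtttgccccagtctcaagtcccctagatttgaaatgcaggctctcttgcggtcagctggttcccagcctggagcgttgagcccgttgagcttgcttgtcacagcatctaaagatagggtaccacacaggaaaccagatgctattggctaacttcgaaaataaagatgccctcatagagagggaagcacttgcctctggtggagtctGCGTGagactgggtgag
Cxcr4: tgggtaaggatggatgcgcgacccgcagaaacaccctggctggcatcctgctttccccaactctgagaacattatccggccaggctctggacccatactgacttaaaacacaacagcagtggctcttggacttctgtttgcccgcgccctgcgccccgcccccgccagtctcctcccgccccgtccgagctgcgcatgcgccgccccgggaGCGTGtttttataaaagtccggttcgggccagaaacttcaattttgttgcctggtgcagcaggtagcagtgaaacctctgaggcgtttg
The core began 33 bases after the RefSeq start of Cx3cr1 and 39 before that of Cxcr4. The GENCODE M21 span of Cx3cr1 reaches to 120069879, upstream of this window, so its start depends on the annotation. It was present in the windows of 5 of the 6 receptors, all but Ccr2, and in 43.8% of 32851 promoter windows of the same length. Receptors were counted as genes, with 3 windows for Ccrl2, each holding the core, whereas that share counts single windows. The letters GGAA, the core bound by ETS factors such as PU.1, were found for 6 of 6 receptors and in 96.0% of all windows, and TATAAA for 1 of 6 (Cxcr4) and in 13.6%. A match describes the letters and is not evidence of binding.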

How the data were processed

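RNA of sorted retinal microglia was sequenced, with 8 libraries in each group. According to the labels' protocols, cDNA was made from 750 pg of total RNA by a SMARTer v4 workflow with 12 cycles of amplification, tagmented (150 pg) by Nextera XT and read as single reads of 50 bases. The kit is unstranded, and the 1.73% of Cx3cr1 exon bases that overlap the predicted gene Gm33858 may hold reads of either gene. The raw columns deposited by the authors hold whole-number read counts for each gene. The submitters' processing notes list mm10, STAR 2.6.0b-1, FastQC 0.72, DESeq2 2.11.40.2 and featureCounts 1.6.2 with no roles. The sources used here do not give the annotation. The authors' normalized signal and mean signal columns, Wald score, log2 fold change, p-value and adjusted p-value were not recomputed; only their log2 values and p-values were read, as the authors' deposited values.

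After filterByExpr and TMM scaling, counts went into edgeR 4.0.16 under R 4.3.3 (robust glmQLFit, two-sided glmQLFTest, threshold 0.05). CPM are counts over the scaled library size. RPKM divide these by the union of exons in GENCODE M21. Lane codes came from the description label. The test was run on simulated counts with planted changes. Mean chi-square per gene between libraries of a group was 15.7 or more, far above sampling noise, and no library was taken as a repeat of another. Reads carry no molecular identifiers, so floors reflect counting error alone.

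The 6 receptors and the gene lists were chosen with earlier results of these data known. Counts of listed genes called are therefore not an independent comparison with the share of all tested genes. Named genes are the 6 receptors, up to 5 tested genes with the lowest p and up to 3 with the highest CPM of each list, the ligands paired with a receptor, the sort genes, the leading marker genes and the most similar genes. Alternatives were other scalings and filters, lane as a covariate, a replicate block, each lane alone, DESeq2 1.42.0, limma-voom (limma 3.58.1), a minimum fold of 1.5 and the omission of each library; the omission of each library with lane as a covariate and the test of lane were added after the data were seen. Some listed genes are not reported here.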

Additional observations from a re-analysis of the deposited data

Results flagged for a closer look

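Ccr2 in OIR replicate 1 stood at 14.0 CPM, far from the other 7 OIR libraries, whose highest was 6.85 CPM. The gap was 0.629 of the OIR range, above Dixon's critical value of 0.526 for 8 samples. This was the only such gap in 12 tests (6 receptors in 2 groups). Chance gives a gap in about 1 in 20 single tests, so it is more likely among 12 tests together. No cause of it was tested.

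The OIR minus nonOIR difference of Rhoh, a GTPase gene from the signalling list, differed between lanes by -0.76 on the log2 scale (lane 2 minus lane 1, edgeR adjusted p = 0.00881). That difference was -0.91 within lane 2, against -0.18 within lane 1. No cause was tested.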

How the results depend on the processing

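Cx3cr1 kept a negative log2 fold change under every alternative run. It passed with lane as a covariate (-0.38), in lane 1 only (-0.32) and in lane 2 only (-0.43). It did not pass under the other scalings and filters, DESeq2, limma-voom or the omission of a library without lane (-0.43 to -0.29). Nor did it pass the minimum fold of 1.5, which an estimate this small could not. With lane as a covariate and a library left out Cx3cr1 lay between -0.40 and -0.35. Ccr2 reversed in lane 1 only (0.40) and ranged between -0.46 and 0.043 over omitted libraries (-0.45 to 0.028 with lane). Cmklr1 reversed with library size alone (0.012) and in lane 1 only (0.058), and ranged between -0.11 and 0.034 over omitted libraries (-0.16 to -0.017 with lane). Ccr1, Ccrl2 and Cxcr4 kept their direction and did not pass after adjustment under any alternative run. Over omitted libraries Ccr1 ranged between 0.23 and 0.52 (0.17 to 0.47 with lane), Ccrl2 between -0.22 and -0.095 (-0.19 to -0.078 with lane) and Cxcr4 between 0.54 and 1.15 (0.60 to 1.40 with lane), its highest values being those without nonOIR replicate 3. The difference between lanes reversed for Ccrl2 with upper-quartile scaling (-0.025) and limma-voom (-0.024), and over omitted libraries (-0.11 to 0.26), and for Cxcr4 with library size alone (0.0051) and RLE scaling (0.0010), and over omitted libraries (-1.14 to 0.46). Under the 10 CPM filter Ccr2 and Cxcr4 gave no value.

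Genes called numbered 1368, against 2159 with lane as a covariate, 417 in lane 1 only and 152 with the minimum fold (926 to 1556 over omitted libraries, 1660 to 2442 with lane). For these 3 settings the number of ligands called was 8, 4 and 3. Of the signalling genes 5 were called, against 8 under the 10 CPM filter, 11 with lane, 8 with the block, 3 in lane 1 only, 10 in lane 2 only, 9 with DESeq2 and 0 with the minimum fold (4 to 7 over omitted libraries, 9 to 12 with lane). The share of all tested genes that were called also moved. It was 10.9% in the main fit, 17.3% with lane, 13.4% with the block and 14.9% with DESeq2. It was 3.33% in lane 1 only and 15.4% in lane 2 only. Under the 10 CPM filter 1188 of 7807 genes were called. The number of signalling genes tested differed between some settings. The cause of these shifts was not tested.

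Groups share replicate numbers, but same-numbered libraries deviated together only weakly (correlations of deviations from group means 0.0118 to 0.295), and the labels do not pair them, so they share only a number. With the replicate number as a block, which also absorbs lane, Cx3cr1 passed (-0.38, edgeR adjusted p = 0.00155) and 1679 genes were called. Akap11, second most like Ccrl2, went to r = -0.29 and Akt1s1, most like Cmklr1, to 0.23 when only group means were removed. Of the other most similar genes, only Fbxo3 (Cxcr4) then kept rank 1. Rin2 (Cx3cr1) went to rank 553, St3gal4 (Ccrl2) to rank 33, and Hs2st1 (Ccr1) and Atraid (Ccr2) to rank 4. Cxcr4 rested on fewer than 50 counts a library.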
